A study of Homo sapiens with 19 samples.

Results

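The elements described here are the 61 DNA elements named TRE6_HPHP followed by a number and an orientation, fwd or rev, of 3196 element names in the second plasmid set and 3422 in the whole series. They were chosen by a rule on names that uses no measured value, but with earlier results of these data known. The 61 names cover 35 numbers, between 6 and 55, of which 26 occur in both orientations, 7 as fwd only and 2 as rev only. Elements that share a number are taken as 1 sequence in its 2 orientations, as the names say, so they are not independent of each other. The assay, QUASARR-seq, reads promoter and enhancer activity of an element from 1 plasmid library, which was electroporated into the human leukaemia cell line K-562. Each element carried a barcode for the promoter read-out (paBC) and one for the enhancer read-out (eaBC), and was paired with 1 of the minimal promoters pMYC, pGAPDH and pAPOBEC3F. Per read-out there were 2 RNA libraries and 2 DNA libraries, 8 libraries in all, and all 3 minimal promoters were read from the same libraries. Per the labels, 20 µg of plasmid went into each electroporation, cells were taken after 6 h, and each pool of cells was divided between RNA and plasmid DNA extraction. All groups share the cell line, the vector and the time, so the RNA libraries and the DNA libraries differ in the molecule read and the minimal promoter tables in the construct.

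A promoter is the DNA at which transcription starts, and an enhancer raises transcription from a promoter elsewhere on the same molecule. Many human regulatory elements can do both when they are tested on plasmids, and a minimal promoter is a short core promoter that gives little transcript until an element drives it. MYC encodes a transcription factor that drives growth, GAPDH is a glycolytic enzyme expressed in nearly all cells, and APOBEC3F is a cytidine deaminase that restricts retroviruses. The labels do not explain what HPHP stands for, and the sequences and genome positions of the elements were not used here, so neither what the elements share in sequence nor the genes near them is described.

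The measure is RNA over DNA: how many barcode reads an element gave in RNA for each read of its plasmid. The deposited values of each column were whole multiples of 1 step, which was taken as 1 read, and each table had been scaled on its own. The labels do not give the unit of these columns, and that a step is 1 read was not established, so read counts and read ratios below rest on that reading and no count model was used. On the deposited scale, a log2 RNA/DNA ratio of 0 is therefore the zero point of 1 table, and levels are not compared between minimal promoters on it. For that comparison the ratio of RNA reads to DNA reads was used, since the minimal promoters were sequenced together. Across the 6 tables the elements named TRE6_HPHP had a median of 29 to 831.5 RNA reads and 81 to 593 DNA reads per library. Total reads per library over all elements were lowest in the pAPOBEC3F enhancer table, with 200722 and 217209 RNA reads, against 773037 and 759171 DNA reads, and single TRE6_HPHP elements had 3 to 235 RNA reads there. They were highest in the pGAPDH promoter table, with 9080385 and 10167588 RNA reads, against 5516308 and 5622101 DNA reads. The protocol pooled 5 electroporations for each technical replicate and ran 2 of these per biological replicate, on separate days for different biological replicates. Which kind the replicates numbered 1 and 2 are is not stated, so they may be technical, and p-values here measure only how far these libraries spread. It is also not stated whether molecules were tagged before PCR, so a read may not stand for 1 molecule.

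Not every element was listed with every minimal promoter. There were 35 elements named TRE6_HPHP with pMYC, 52 with pGAPDH and 45 with pAPOBEC3F. Of the 61 elements, 22 were listed with all 3 minimal promoters, 27 with 2 and 12 with 1. All had a test except TRE6_HPHP0037.rev in the pGAPDH enhancer table, which had 0 and 0 RNA reads, against 0 and 1 DNA reads. No element was otherwise removed for low values. In the promoter tables all elements named TRE6_HPHP had at least 50 DNA reads over both libraries, while as enhancers 33 of 35 reached that depth with pMYC, 44 of 51 with pGAPDH and 44 of 45 with pAPOBEC3F.

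With pMYC, most TRE6_HPHP elements gave more RNA than the zero point of the table in the promoter read-out. By limma with Benjamini-Hochberg adjustment over all 2561 elements, 32 of 35 were higher and 2 were lower at an adjusted p under 0.05, that is 91.4% higher, against 51.6% of all elements higher and 27.6% lower. Their median log2 RNA/DNA ratio was 1.89, against 0.24 for all elements. TRE6_HPHP0043.fwd was the highest, with 6358 and 6584 RNA reads, against 1304 and 1304 DNA reads. Both replicates of it lay far above the zero point, at log2 ratios of 4.24 and 4.16, an 18.3-fold excess (standard error 0.04, adjusted limma p 2.3e-19). TRE6_HPHP0028.fwd followed, with 4019 and 4428 RNA reads, against 1069 and 1131 DNA reads, and log2 ratios of 3.86 and 3.79. TRE6_HPHP0015.fwd was the most deeply read, with 8492 and 9131 RNA reads, against 2467 and 2501 DNA reads, and log2 ratios of 3.73 and 3.69. The replicates of both elements differed by less than 0.1 on the log2 scale. TRE6_HPHP0022.fwd, at 3.67 ± 0.11, and TRE6_HPHP0042.rev, at 3.49 ± 0.23 (SD, n = 2 each), completed the 5 highest.

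At the other end of the pMYC promoter table, TRE6_HPHP0050.fwd had 33 and 37 RNA reads, against 414 and 385 DNA reads. Its log2 ratio was -1.61 ± 0.10 (SD, n = 2, adjusted limma p 1.8e-07), and its percentile rank of 0.742 put it among the lowest of all 2561 elements. TRE6_HPHP0055.rev was lower too, with 31 and 24 RNA reads, against 166 and 171 DNA reads, and a log2 ratio of -0.72 ± 0.38 (SD, n = 2, adjusted limma p 0.011). The lowest element still called higher was TRE6_HPHP0055.fwd, at 0.31 ± 0.05 (SD, n = 2), and it was no longer called after centring on the median of all elements (adjusted limma p 0.36). The 1 element without a call was TRE6_HPHP0050.rev, at 0.15 ± 0.02. One value rested on a single library: TRE6_HPHP0046.rev had 34 RNA reads in replicate 1 and 187 in replicate 2, against 84 and 76 DNA reads, so its log2 ratios were 0.66 and 3.12.

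The pMYC enhancer read-out had smaller ratios but the same lean. In it 27 of 35 elements were called higher, 77.1%, and 0 were lower, against 39.6% higher and 7.38% lower among all 2561 elements. None was lower at an unadjusted limma p under 0.05 either. The median log2 ratio was 1.00, against 0.19 for all elements. TRE6_HPHP0043.fwd again led, with 1699 and 1684 RNA reads, against 306 and 329 DNA reads. Its log2 ratios of 4.02 and 3.79 placed it at percentile 99.9 of the table (adjusted limma p 9.9e-21). TRE6_HPHP0046.rev came next, with 388 and 418 RNA reads, against 173 and 139 DNA reads, and log2 ratios of 2.71 and 3.02. These 2 elements stood apart from the other 33, the next being TRE6_HPHP0052.rev at 1.63 ± 0.31, TRE6_HPHP0028.fwd at 1.62 ± 0.14 and TRE6_HPHP0013.fwd at 1.60 ± 0.11 (SD, n = 2 each). The lowest elements still called higher were TRE6_HPHP0020.fwd at 0.64 ± 0.10, TRE6_HPHP0017.rev at 0.53 ± 0.11 and TRE6_HPHP0049.fwd at 0.40 ± 0.14, the last with an adjusted limma p of 0.044. TRE6_HPHP0049.fwd was no longer called when values were centred on the median of all elements, with an adjusted limma p of 0.30, or with a replicate block (0.052).

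With pAPOBEC3F, nearly all TRE6_HPHP elements were active promoters relative to the zero point of the table. Of 45 elements, 42 were called higher, 93.3%, and 0 lower, against 50.5% higher and 30% lower among all 2699 elements by limma, and 0 were lower at an unadjusted p under 0.05. The median log2 ratio was 2.74, against 0.24 for all elements, and the values ran from -0.27 to 5.50. TRE6_HPHP0054.fwd had 3171 and 3139 RNA reads, against 366 and 421 DNA reads. Its log2 ratios of 5.66 and 5.34, a 45.1-fold excess, put it at percentile 99.8 (adjusted limma p 8.3e-12). TRE6_HPHP0043.rev had 2096 and 2297 RNA reads, against 376 and 396 DNA reads, with log2 ratios of 5.02 and 4.97. TRE6_HPHP0042.rev, TRE6_HPHP0028.fwd and TRE6_HPHP0015.fwd followed at 4.68 ± 0.04, 4.58 ± 0.06 and 4.24 ± 0.03 (SD, n = 2 each), and all 3 were also among the 5 highest with pMYC. The lowest called elements were TRE6_HPHP0021.rev at 0.97 ± 0.25, TRE6_HPHP0031.fwd at 0.80 ± 0.10 and TRE6_HPHP0055.fwd at 0.74 ± 0.00 (SD, n = 2 each). The 3 elements without a call were TRE6_HPHP0050.rev at 0.11 ± 0.20, TRE6_HPHP0038.rev at -0.06 ± 0.32 and TRE6_HPHP0050.fwd at -0.27 ± 0.36. The last of these had 39 and 30 RNA reads, against 233 and 237 DNA reads.

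As enhancers with pAPOBEC3F, 25 of 45 elements were called higher (55.6%) and 0 lower, against 28.9% higher and 7.5% lower among all 2695 elements by limma. At an unadjusted p under 0.05 the count of lower elements was 1, against 319 of all 2695. The median log2 ratio was 0.80, against 0.09 for all elements. The order at the top differed from that of the promoter read-out. TRE6_HPHP0010.fwd led with 235 and 227 RNA reads, against 262 and 209 DNA reads, and log2 ratios of 2.19 and 2.27. TRE6_HPHP0048.fwd, at percentile 89.4 as a promoter, was second with 97 and 117 RNA reads, against 116 and 108 DNA reads, and log2 ratios of 2.09 and 2.27. TRE6_HPHP0043.rev, TRE6_HPHP0054.fwd and TRE6_HPHP0052.rev stood at 1.83 ± 0.17, 1.73 ± 0.23 and 1.57 ± 0.15 (SD, n = 2 each). The lowest called elements were TRE6_HPHP0011.fwd, TRE6_HPHP0029.fwd and TRE6_HPHP0010.rev at 0.66 ± 0.03, 0.59 ± 0.16 and 0.52 ± 0.08. Standard errors in this table had a median of 0.22, against 0.10 in the pAPOBEC3F promoter table, and TRE6_HPHP0025.rev, at 0.61 ± 0.01 with 11 and 9 RNA reads, had no call.

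With pGAPDH, TRE6_HPHP elements fell on both sides of the zero point as promoters. By limma over all 3044 elements, 29 of 52 were called higher, 55.8%, and 14 lower, 26.9%, against 36.5% higher and 47.1% lower among all elements. The median log2 ratio was 0.30, against -0.07 for all. TRE6_HPHP0054.fwd had the highest ratio, with 2732 and 3145 RNA reads, against 460 and 451 DNA reads, and log2 ratios of 1.95 and 2.04 (adjusted limma p 1.2e-18). TRE6_HPHP0043.rev had 1110 RNA reads over both libraries, against 192 DNA reads, and log2 ratios of 2.19 and 1.53, so its replicates lay farther apart. Both elements also led the pAPOBEC3F promoter table. TRE6_HPHP0022.fwd at 1.67 ± 0.09, TRE6_HPHP0048.fwd at 1.35 ± 0.15 and TRE6_HPHP0011.rev at 1.15 ± 0.01 came next (SD, n = 2 each). The lowest was again TRE6_HPHP0050.fwd, with 435 and 485 RNA reads, against 1221 and 1222 DNA reads. Its log2 ratios of -2.11 and -2.09 gave it a percentile rank of 0.0657 among the 3044 elements (adjusted limma p 1.0e-17). TRE6_HPHP0013.fwd at -0.92 ± 0.00 and TRE6_HPHP0055.rev at -0.91 ± 0.24 (SD, n = 2 each) were the next lowest.

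The pGAPDH enhancer read-out had the narrowest range of the 6 tables, from -0.33 to 1.21. Of 51 tested elements 20 were called higher (39.2%) and 1 was lower, 1.96%, against 23.5% higher and 19.2% lower among all 3043 elements by limma. The median log2 ratio was 0.15, against -0.01. TRE6_HPHP0043.rev had 105 and 87 RNA reads, against 19 and 15 DNA reads, and log2 ratios of 1.26 and 1.16 (adjusted limma p 1.9e-05). It was followed by TRE6_HPHP0054.fwd at 0.86 ± 0.09, TRE6_HPHP0048.fwd at 0.76 ± 0.26, TRE6_HPHP0046.rev at 0.76 ± 0.06 and TRE6_HPHP0022.rev at 0.65 ± 0.23 (SD, n = 2 each). TRE6_HPHP0043.rev, TRE6_HPHP0054.fwd and TRE6_HPHP0048.fwd were also among the 5 highest in the pAPOBEC3F enhancer table, which comes from the same libraries. The element called lower was TRE6_HPHP0050.rev, with 681 and 822 RNA reads, against 383 and 351 DNA reads, at -0.23 ± 0.17 (SD, n = 2, adjusted limma p 0.0089). Near the threshold, TRE6_HPHP0011.fwd at 0.32 ± 0.01 and TRE6_HPHP0015.fwd at 0.21 ± 0.12 (SD, n = 2 each) had adjusted limma p-values of 0.044 and 0.042. In the authors' deposited table their adjusted limma p-values were 0.065 and 0.058, and with a replicate block that of TRE6_HPHP0011.fwd was 0.052. Without a mean-variance trend, TRE6_HPHP0050.rev was no longer called (adjusted limma p 0.088). The count of higher elements in this table was 6 without RNA replicate 1 and 12 without RNA replicate 2.

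Elements of 2 other name classes leaned the same way. TRE6_HPHP, TRE6_HRHP and TRE6_HRHR elements were called higher for 91.4%, 88.7% and 77.3% of those tested in the pMYC promoter table, and for 77.1%, 67.9% and 63.6% in its enhancer table. In the pAPOBEC3F promoter table the shares were 93.3%, 89.1% and 85.7%, and as enhancers 55.6%, 50.9% and 46.9%. In the pGAPDH promoter table they were 55.8%, 66.2% and 41.9%, and as enhancers 39.2%, 45.1% and 38.7%. The median percentile of TRE6_HPHP elements ran from 72.9 in the pGAPDH enhancer table to 86.8 in the pAPOBEC3F promoter table, that of TRE6_HRHP from 81.3 to 87.4, and that of TRE6_HRHR from 65.3 to 80.9. No test was made between these classes of names.

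The same element was next set side by side in the 2 read-outs. With pMYC, 27 of 35 elements (77.1%) were called higher in both, against 36.9% of 2554 elements in all. A further 5 (14.3%) were higher as promoter with no call as enhancer, against 14.6% of all, and 2 (5.71%) were lower as promoter with no call as enhancer, against 20.3%. With pAPOBEC3F, 25 of 45 (55.6%) were higher in both, against 27.6% of 2691, and 17 (37.8%) were higher as promoter with no enhancer call, against 22.4%. With pGAPDH, 14 of 51 (27.5%) were higher in both, against 19.3% of 3039, and another 14 were higher as promoter with no enhancer call, against 16.0%. There 11 (21.6%) were lower as promoter with no enhancer call, against 28.6%, and 4 (7.84%) were higher as enhancer with no promoter call, against 2.11%. The enhancer tables held fewer reads, so a missing call there is not a measured absence. Calls of opposite direction were made for 2 elements, both with pGAPDH and both lower as promoter and higher as enhancer. That is 3.92% of the 51, near the 2.04% (62) of all 3039 elements with this pair of calls. They were TRE6_HPHP0013.fwd and TRE6_HPHP0025.rev. Across TRE6_HPHP elements, Pearson's r between the 2 read-outs was 0.707 with pMYC (35 elements), 0.655 with pAPOBEC3F (45) and 0.550 with pGAPDH (51). Over all elements it was higher, at 0.835, 0.765 and 0.616 in the same order. For comparison, r between replicates of the enhancer read-out over TRE6_HPHP elements was 0.906, 0.697 and 0.720 in the same tables. Elements are not independent replicates, and the 2 read-outs come from the same plasmids, so these values describe the tables only.

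TRE6_HPHP0025.rev had 225 and 294 RNA reads as promoter with pGAPDH, against 254 and 272 DNA reads, and 184 and 172 RNA reads as enhancer, against 61 and 48 DNA reads. Its log2 ratio was -0.72 ± 0.10 as promoter (SD, n = 2), at percentile 13.1. As enhancer it was 0.45 ± 0.06 (SD, n = 2), at percentile 91.1. Both replicates lay on the same side in each read-out. With pAPOBEC3F the same element was called higher as promoter, at 2.14 ± 0.30 (SD, n = 2). TRE6_HPHP0013.fwd ranked at 7.52 as promoter and 94.5 as enhancer with pGAPDH, at 76.8 and 93.2 with pMYC, and at 76.1 and 90.02 with pAPOBEC3F. Its enhancer rank was thus above its promoter rank with all 3 minimal promoters, while its promoter call was lower only with pGAPDH. TRE6_HPHP0050.fwd ranked at 0.0657 as promoter and 70.1 as enhancer with pGAPDH, but at 0.742 and 9.37 with pMYC and at 29.8 and 27.6 with pAPOBEC3F. Its pGAPDH enhancer log2 ratio of 0.13 was not called. Other elements with the higher rank as enhancer were TRE6_HPHP0038.rev, at 38.8 as promoter and 72.6 as enhancer with pAPOBEC3F, and TRE6_HPHP0031.fwd, at 61.9 and 85.9 with pAPOBEC3F and at 56.1 and 84.2 with pMYC. TRE6_HPHP0046.rev ranked at 84.4 and 99.2 with pMYC, its promoter value being the one whose replicates lay far apart.

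On the promoter side, TRE6_HPHP0006.rev ranked at 73.0 as promoter and 5.64 as enhancer with pAPOBEC3F. It had 222 and 275 RNA reads as promoter, against 458 and 502 DNA reads, and 18 and 16 RNA reads as enhancer, against 120 and 132 DNA reads. TRE6_HPHP0038.fwd and TRE6_HPHP0021.fwd ranked at 66.6 and 65.5 as promoters and at 4.19 and 6.98 as enhancers with pAPOBEC3F. Their enhancer values rested on 10 and 3, and on 4 and 10, RNA reads, and none of the 3 enhancer values was called lower. With pGAPDH, TRE6_HPHP0034.rev ranked at 75.2 as promoter and 10.5 as enhancer, TRE6_HPHP0042.fwd at 82.4 and 27.5, and TRE6_HPHP0038.fwd at 55.5 and 11.7. Their enhancer log2 ratios of -0.29, -0.14 and -0.27 were not called. With pMYC, the widest gap was that of TRE6_HPHP0031.rev, at 78.3 as promoter and 13.6 as enhancer, followed by TRE6_HPHP0050.rev at 46.3 and 13.9 and TRE6_HPHP0039.fwd at 75.8 and 52.1. The enhancer log2 ratios of these, -0.25, -0.25 and 0.22, were not called either. The promoter rank was the higher one for 34 of 45 elements with pAPOBEC3F, 28 of 51 with pGAPDH and 25 of 35 with pMYC. Ranks of the 2 read-outs differed by more than 25 points for 11, 18 and 3 of these elements. Neither set of counts was taken over all elements, so whether they differ from elements in general was not tested.

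Orientation was tested where a number was listed as fwd and as rev in 1 table, by setting both against each other within each library. This held for 23 numbers in at least 1 table and for 5 numbers with all 3 minimal promoters. In the promoter read-out, orientation differences were called for most numbers, in both directions, among these elements and among all. With pMYC, 2 of 8 numbers were higher as fwd and 4 were lower as fwd, against 37.1% higher and 21.2% lower among 1086 numbers by limma. With pGAPDH 7 of 21 were higher as fwd and 11 lower, against 37.9% higher and 31.5% lower among 1429. With pAPOBEC3F 4 of 15 were higher as fwd and 6 lower, against 33% higher and 21.2% lower among 1192. The median size of the fwd minus rev difference was 0.95, 0.62 and 0.89 on the log2 scale in these 3 tables, against 0.39, 0.32 and 0.41 for all numbers.

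TRE6_HPHP0050 had the largest promoter difference with pMYC and with pGAPDH. With pMYC its log2 ratios were -1.68 and -1.54 as fwd and 0.16 and 0.14 as rev, a fwd minus rev difference of -1.76 (standard error 0.07, adjusted limma p 2.4e-04). With pGAPDH they were -2.11 and -2.09 as fwd and -0.55 and -0.45 as rev, a difference of -1.60 (standard error 0.06, adjusted limma p 1.5e-04). With pAPOBEC3F there were 39 and 30 RNA reads as fwd and 64 and 63 as rev, and the difference was -0.38 without a call (adjusted limma p 0.077). The 2 orientations did not overlap between replicates with pMYC or with pGAPDH. TRE6_HPHP0031 was lower as fwd in all 3 promoter tables, by -1.003 with pMYC, -1.06 with pGAPDH and -1.15 with pAPOBEC3F (adjusted limma p 0.0033, 2.3e-04 and 0.0012). In the enhancer read-out the same number was at 1.10 and 0.90 as fwd and -0.49 and -0.01 as rev with pMYC, a difference of 1.25 with an adjusted limma p of 0.098, so the opposite direction there was not called. TRE6_HPHP0046 was lower as fwd as a promoter with pGAPDH, with log2 ratios of -0.33 and -0.32 as fwd and 0.76 and 0.92 as rev, a difference of -1.16 (adjusted limma p 1.8e-04).

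Other numbers were higher as fwd. TRE6_HPHP0015 had promoter log2 ratios of 4.26 and 4.21 as fwd and 2.61 and 2.52 as rev with pAPOBEC3F, a difference of 1.68 (standard error 0.07, adjusted limma p 3.4e-04). With pGAPDH its difference was 0.60 (adjusted limma p 0.0015). TRE6_HPHP0022 had 3.60 and 3.75 as fwd and 2.47 and 2.32 as rev with pMYC, a difference of 1.28 (adjusted limma p 9.1e-04), and a difference of 0.63 with pGAPDH. TRE6_HPHP0049 with pGAPDH was above the zero point as fwd, at 0.57 and 0.20, and below it as rev, at -0.77 and -0.79. TRE6_HPHP0025 was higher as fwd by 1.05 with pAPOBEC3F and by 0.74 with pGAPDH, TRE6_HPHP0006 by 0.66 with pGAPDH, and TRE6_HPHP0038 by 1.10 with pAPOBEC3F. TRE6_HPHP0016 and TRE6_HPHP0011 were lower as fwd with pAPOBEC3F, by -1.14 and -1.11, and TRE6_HPHP0039 was lower as fwd with pMYC, by -0.89. With pMYC, TRE6_HPHP0055 was higher as fwd by 1.03 (adjusted limma p 0.015), its rev log2 ratios being -0.45 and -0.99. With 1 library left out, this difference ran from 0.73 to 1.32. That of TRE6_HPHP0025 with pAPOBEC3F ran from 0.93 to 1.18. By contrast, TRE6_HPHP0024 was listed in both orientations with all 3 minimal promoters and had promoter differences of -0.10, -0.10 and -0.15 with pMYC, pGAPDH and pAPOBEC3F, none of them called. Its standard errors were 0.07, 0.05 and 0.08, against medians of 0.11, 0.07 and 0.10 over the TRE6_HPHP numbers of those tables.

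TRE6_HPHP0010 changed direction with the minimal promoter. As a promoter with pGAPDH it was lower as fwd, at 0.65 and 0.52, than as rev, at 0.97 and 0.90 (difference -0.35, standard error 0.04, adjusted limma p 0.0015). With pAPOBEC3F it was higher as fwd, at 4.02 ± 0.06, than as rev, at 2.99 ± 0.02 (SD, n = 2 each, difference 1.03, standard error 0.09, adjusted limma p 0.0012). The 2 tables come from the same libraries, and the difference between these 2 orientation effects was not itself tested. In the pAPOBEC3F enhancer table TRE6_HPHP0010 was the only number called, at 2.19 and 2.27 as fwd and 0.46 and 0.58 as rev, a difference of 1.71 (standard error 0.22, adjusted limma p 0.043).

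Few orientation differences were called in the enhancer read-out, among these elements and among all. With pMYC 0 of 8 numbers were higher as fwd and 1 was lower, against 1.57% higher and 2.39% lower among 1086 by limma. It was TRE6_HPHP0046, at 1.66 and 0.65 as fwd and 2.71 and 3.02 as rev, lower as fwd by -1.71 (adjusted limma p 0.049). With pAPOBEC3F 1 of 15 was higher as fwd and 0 were lower, against 1.26% higher and 1.52% lower among 1188. With pGAPDH 0 of 20 were called in either direction by limma, against 0.629% higher and 1.96% lower among 1430. At an unadjusted limma p under 0.05 there were 2 of 20, against 390 of 1430. Without a mean-variance trend in limma, the TRE6_HPHP0046 and TRE6_HPHP0010 enhancer calls were both lost, at adjusted p-values of 0.076 and 0.055. With a replicate block they were at 0.14 each, and 1 number was higher and 1 lower as fwd with pGAPDH. The TRE6_HPHP0046 call was also lost without DNA replicate 2, and the TRE6_HPHP0010 call without either DNA library. The median size of an enhancer difference was 0.60 with pMYC, 0.13 with pGAPDH and 0.56 with pAPOBEC3F, against 0.24, 0.15 and 0.26 for all numbers. The median standard error of these differences was 0.19, 0.11 and 0.27.

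The minimal promoters were compared by the ratio of RNA reads to DNA reads for the same element in the same libraries. Across the 22 elements listed with all 3, the median promoter read ratio was 1.92 with pGAPDH, 1.13 with pAPOBEC3F and 1.10 with pMYC, against 1.53, 0.210 and 0.319 over all elements. In the enhancer read-out, where 21 of them were tested, the medians were 2.61, 0.332 and 0.691 in the same order, against 2.37, 0.224 and 0.408. By these medians, the pGAPDH minimal promoter gave the most RNA per plasmid, both for these elements and over all elements. As enhancers, 21 of 21 elements had their highest read ratio with pGAPDH, the next with pMYC and the lowest with pAPOBEC3F. As promoters, 13 of 22 followed that order, 6 were highest with pGAPDH and lowest with pMYC, 2 were highest with pMYC and 1 was highest with pAPOBEC3F. The 22 promoter values spanned 3.77 on the log2 scale with pGAPDH, 4.95 with pAPOBEC3F and 5.32 with pMYC.

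Each difference was centred on its median over all shared elements, to ask whether an element departs from the shift of elements in general. A negative centred value can mean that an element changed less than the median element, not more. As promoters, TRE6_HPHP elements gained less from pGAPDH than the median element did. Their median promoter percentiles were 84.4 with pMYC and 86.8 with pAPOBEC3F. Whether other elements of such rank gained as little was not tested. Against pMYC, 24 of 28 elements were relatively lower with pGAPDH and 0 were higher, against 39.5% lower and 33.3% higher among all 2469 shared elements by limma, and 0 were higher at an unadjusted p under 0.05. The median centred log2 difference was -1.08. All shared elements had moved by a median of 2.20, or 4.61-fold, toward pGAPDH, and these elements by 1.13, or 2.19-fold. Without centring, 23 of 28 were higher with pGAPDH and 0 lower. No share over all shared elements was taken for uncentred calls, here or below, so these counts have no background. Against pAPOBEC3F, 37 of 39 were relatively lower with pGAPDH and 0 higher, against 42.6% lower and 38.6% higher among all 2599, and 0 were higher at an unadjusted p under 0.05. The median centred difference was -1.96. The median over all shared elements was 2.74, or 6.70-fold, and these elements moved by 0.78, or 1.72-fold. Without centring, 27 of 39 were higher with pGAPDH and 3 lower.

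TRE6_HPHP0015.fwd had nearly equal promoter read ratios with both minimal promoters, with log2 values of 1.72 and 1.86 with pGAPDH and of 1.78 and 1.87 with pMYC. Its centred difference was -2.24 (standard error 0.07, adjusted limma p 1.1e-05), and its uncentred difference was -0.04. TRE6_HPHP0037.rev had 0.83 and 1.26 with pGAPDH and 1.02 and 1.16 with pMYC, and TRE6_HPHP0011.fwd had 1.21 and 1.19 with pGAPDH and 1.05 and 1.12 with pMYC. For the first 2 of these elements the replicates of the minimal promoters overlapped and for the third they were 0.12 apart on average, while the median element was 4.61-fold higher with pGAPDH. Their centred differences were -2.24, -2.25 and -2.09, and their uncentred ones -0.04, -0.05 and 0.12. The 4 elements not called were TRE6_HPHP0050.fwd, TRE6_HPHP0049.fwd and TRE6_HPHP0055.rev, with centred differences of -0.12, 0.03 and 0.17 (adjusted limma p 0.19, 0.80 and 0.56), and TRE6_HPHP0046.rev. The last stood at -0.68 with a standard error of 0.68, its pMYC replicates lying at log2 read ratios of -1.29 and 1.29.

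Between pGAPDH and pAPOBEC3F the promoter read ratio of TRE6_HPHP0054.fwd was 2.57 and 2.80 on the log2 scale with pGAPDH and 3.11 and 2.90 with pAPOBEC3F. Its centred difference was -3.06 (standard error 0.12, adjusted limma p 2.1e-05) and its uncentred difference -0.32. TRE6_HPHP0016.rev had 0.80 and 1.19 with pGAPDH and 1.45 and 1.53 with pAPOBEC3F, a centred difference of -3.24 and an uncentred one of -0.50. TRE6_HPHP0042.rev had 1.40 and 2.17 with pGAPDH and 2.11 and 2.27 with pAPOBEC3F, a centred difference of -3.15 and an uncentred one of -0.40. Per plasmid these 3 elements gave less RNA on average with pGAPDH, while the median element was 6.70-fold stronger with pGAPDH. For TRE6_HPHP0042.rev the uncentred difference was not called (adjusted limma p 0.072), and its replicates overlapped between the minimal promoters. The 2 elements not called were TRE6_HPHP0038.rev at 0.16 and TRE6_HPHP0050.rev at -0.17 (adjusted limma p 0.12 and 0.29).

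Between pAPOBEC3F and pMYC the promoter values were closer. Of 26 elements 18 were relatively higher with pAPOBEC3F and 1 was lower, against 24.3% higher and 15% lower among all 2279 by limma. The median centred difference was 0.42, and the uncentred one was -0.08. Without centring 6 were higher and 6 lower, with a replicate block 11 were higher, and with either DNA library left out 0 of the 26 were called in either direction. TRE6_HPHP0055.rev had log2 read ratios of -1.07 and -1.64 with pAPOBEC3F and of -2.40 and -2.81 with pMYC, a centred difference of 1.75 (standard error 0.08, adjusted limma p 0.0070). TRE6_HPHP0050.fwd had -2.56 and -2.96 with pAPOBEC3F and -3.63 and -3.36 with pMYC, a centred difference of 1.24. Both were among the weakest promoters with pMYC, and their replicates did not overlap between the minimal promoters. TRE6_HPHP0046.fwd had -0.15 and -0.14 with pAPOBEC3F and -0.73 and -0.96 with pMYC, a centred difference of 1.21 (adjusted limma p 0.0074). The element that was relatively lower was TRE6_HPHP0016.fwd, at 0.32 and 0.37 with pAPOBEC3F and 1.46 and 1.41 with pMYC, a centred difference of -0.59 (adjusted limma p 0.018).

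As enhancers, the centred differences of TRE6_HPHP elements between minimal promoters had smaller medians than as promoters, while the uncentred ones had larger medians. Of 27 elements 12 were relatively lower with pGAPDH than with pMYC and 0 higher, against 16.9% lower and 3.89% higher among all 2468 by limma. At an unadjusted p under 0.05, 3 were higher, against 277 of all 2468. The median centred difference was -0.43, all shared elements having moved by 2.52, or 5.75-fold, and these by 2.09, or 4.27-fold. Without centring 27 of 27 were higher with pGAPDH. The count of 12 was 2 without DNA replicate 1, 1 without DNA replicate 2 and 6 with a replicate block. TRE6_HPHP0046.rev, the second strongest pMYC enhancer, had log2 read ratios of 1.98 and 2.05 with pGAPDH and of 1.16 and 1.58 with pMYC. Its centred difference was -1.89 (standard error 0.18, adjusted limma p 0.0031) and its uncentred difference 0.64. TRE6_HPHP0042.rev at -1.24 and TRE6_HPHP0029.rev at -0.94 followed, with uncentred differences of 1.29 and 1.58. With the block, TRE6_HPHP0029.rev had an adjusted limma p of 0.053.

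Against pAPOBEC3F, 5 of 38 elements were relatively lower as enhancers with pGAPDH and 0 higher, against 11.3% lower and 1.23% higher among all 2595 by limma. The share of 13.2% lower is near the background of 11.3%. At an unadjusted p under 0.05, 1 was higher, against 224 of all 2595. Without centring 38 of 38 were higher with pGAPDH, by a median of 2.93, against 3.39 over all shared elements. TRE6_HPHP0010.fwd had log2 read ratios of 1.56 and 1.86 with pGAPDH and of -0.16 and 0.12 with pAPOBEC3F, a centred difference of -1.66 and an uncentred one of 1.73. TRE6_HPHP0048.fwd had 1.75 and 2.28 with pGAPDH and -0.26 and 0.11 with pAPOBEC3F, a centred difference of -1.31 and an uncentred one of 2.08. TRE6_HPHP0042.rev had a centred difference of -1.10 and an uncentred one of 2.28. The other 2 called were TRE6_HPHP0054.fwd at -0.75 and TRE6_HPHP0015.rev at -0.67. With a replicate block 3 were called lower. These calls were lost without either DNA library, where 0 elements were called lower, and numbered 11 and 12 without RNA replicates 1 and 2. Between pAPOBEC3F and pMYC, 0 of 26 enhancer differences were called by limma, as were 0 of all 2279 (0% in each direction). An unadjusted limma p under 0.05 was found for 4 of the 26, against 239 of all 2279. Those 26 centred differences ran from -0.86 to 0.51 with a median standard error of 0.23, and without centring 20 of 26 were lower with pAPOBEC3F.

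TRE6_HPHP0043 was listed as fwd with pMYC only and as rev with pGAPDH and pAPOBEC3F only, so its orientations and minimal promoters cannot be told apart. It was at percentile 95.9 or above in all 6 tables, with promoter ranks of 99.1 as fwd with pMYC, and 99.2 and 99.1 as rev with pGAPDH and pAPOBEC3F. Its RNA to DNA read ratios as promoter were 5.84 with pGAPDH, 5.68 with pAPOBEC3F and 4.96 with pMYC, while as enhancer they were 5.53, 0.746 and 5.32. As promoter its read ratios thus lay between 4.96 and 5.84. As enhancer its read ratio was lowest with pAPOBEC3F, at 0.746, as was the median enhancer read ratio over all elements. Those medians were 2.37 with pGAPDH, 0.224 with pAPOBEC3F and 0.408 with pMYC. The centred enhancer difference of TRE6_HPHP0043.rev between pGAPDH and pAPOBEC3F was -0.50 and was not called (adjusted limma p 0.14). Promoter and enhancer barcodes were read from different libraries, so read ratios are compared only within a read-out. TRE6_HPHP0054.fwd, listed with pGAPDH and pAPOBEC3F, had promoter read ratios of 6.43 and 8.03 and enhancer read ratios of 4.33 and 0.698. At the low end TRE6_HPHP0050.fwd had promoter read ratios of 0.376 with pGAPDH, 0.147 with pAPOBEC3F and 0.0887 with pMYC, and enhancer read ratios of 2.61, 0.188 and 0.282.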

How the data were processed

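Promoter (paBC) and enhancer (eaBC) barcodes were read in K-562 cells, and 6 tables of the second plasmid set were used, 1 for each minimal promoter and read-out. The submitters' processing notes name the tools fastp, edgeR and limma and the build hg38. How the authors matched barcodes and in which order the tools ran is not given in the sources used here. The deposited signal columns, 2 DNA and 2 RNA replicates, have no stated unit. All values of a column were whole multiples of 1 step (tolerance 0.02), which was taken as 1 read. Per the file headers, the deposited tables also hold log2 fold changes, p-values and scores (a moderated t and a log odds) of a limma fit by the authors. Their fold changes and p-values served as an alternative, and their scores were not used.

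For each table limma (version 3.58.1, R 4.3.3, eBayes with a mean-variance trend) was fitted to log2(signal + 0.5 reads), RNA minus DNA, with Benjamini-Hochberg adjustment over all tested elements and a threshold of 0.05. Adding 0.5 reads draws the read ratio of elements with few reads toward 1. Orientation was fitted as log2 fwd minus log2 rev within each library. Minimal promoters were fitted as the difference of log2 reads within each library, centred on the median of all shared elements. Read-outs were set side by side as percentile ranks within a table, with no test. Tables were made with Python 3.11.15, numpy 2.4.6 and pandas 2.3.3. The fits were also run on simulated reads with the same added spread for every element, which does not test calls on elements that spread more. Standard deviations are over 2 replicates.

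Elements named are, with at least 20 DNA reads, the 5 highest and 3 lowest called in each table, the 3 largest called differences either way in orientation and between minimal promoters, and the 3 widest rank gaps either way between read-outs. A few others were chosen after their values were seen: TRE6_HPHP0024, TRE6_HPHP0046.rev in the pMYC promoter table, TRE6_HPHP0010 with pGAPDH, the elements without a call and further values of named elements. The elements and these lists were chosen with earlier results of these data known. Alternatives were 2 reads added, no trend, at least 50 DNA reads, a replicate block, each library left out, a log2 difference of at least 1, other centring and the authors' deposited table.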

Additional observations from a re-analysis of the deposited data

Results flagged for a closer look

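For the following counts of TRE6_HPHP elements, the difference between minimal promoters departed from its median over all shared elements by limma. In the promoter read-out there were 24 between pGAPDH and pMYC, 37 between pGAPDH and pAPOBEC3F, and 19 between pAPOBEC3F and pMYC. In the enhancer read-out there were 12 between pGAPDH and pMYC, 5 between pGAPDH and pAPOBEC3F, and 0 between pAPOBEC3F and pMYC. In the last comparison 4 of 26 had an unadjusted limma p under 0.05, against 239 of all 2279. Higher and lower shares among all shared elements were 33.3% and 39.5%, 38.6% and 42.6%, and 24.3% and 15% as promoters in the same order, and 3.89% and 16.9%, 1.23% and 11.3%, and 0% and 0% as enhancers. The 5 of 38 (13.2%) between pGAPDH and pAPOBEC3F as enhancers are thus near the share of all elements. All values below are centred log2 differences.

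Between pGAPDH and pMYC as promoters, the largest differences were those of TRE6_HPHP0037.rev at -2.25, TRE6_HPHP0015.fwd at -2.24 and TRE6_HPHP0011.fwd at -2.09, lower with pGAPDH. As enhancers they were those of TRE6_HPHP0046.rev at -1.89, TRE6_HPHP0042.rev at -1.24 and TRE6_HPHP0029.rev at -0.94. Between pGAPDH and pAPOBEC3F as promoters, TRE6_HPHP0016.rev stood at -3.24, TRE6_HPHP0042.rev at -3.15 and TRE6_HPHP0054.fwd at -3.06. As enhancers, TRE6_HPHP0010.fwd stood at -1.66, TRE6_HPHP0048.fwd at -1.31 and TRE6_HPHP0042.rev at -1.10. Between pAPOBEC3F and pMYC as promoters, TRE6_HPHP0055.rev stood at 1.75, TRE6_HPHP0050.fwd at 1.24, TRE6_HPHP0046.fwd at 1.21 and TRE6_HPHP0016.fwd at -0.59.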

How the results depend on the processing

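The counts of higher elements in the promoter tables of pMYC and pAPOBEC3F stayed within 1.5 times under all alternatives run. Centring on all elements gave 1 lower element in each pAPOBEC3F table, against 0. With a log2 difference of at least 1, the lower count was 1 in the pMYC promoter table, the higher and lower counts were 8 and 1 in the pGAPDH promoter table and 1 and 0 in its enhancer table, and the higher count was 13 in the pAPOBEC3F enhancer table. Without a trend, the pMYC and pAPOBEC3F enhancer orientation calls went to 0 and the lower enhancer count of pGAPDH against pAPOBEC3F to 3. With at least 50 DNA reads, 1 number was lower as fwd in the pGAPDH enhancer table. Without centring, higher and lower counts between minimal promoters were 23 and 0 (pGAPDH and pMYC, promoter), 27 and 0 (enhancer), 6 and 6 (pAPOBEC3F and pMYC, promoter), 27 and 3 (pGAPDH and pAPOBEC3F, promoter) and 38 and 0 (enhancer), and 20 were lower as pAPOBEC3F against pMYC enhancers. These signs turned without centring: TRE6_HPHP0010.fwd 1.73, TRE6_HPHP0042.rev 2.28 and TRE6_HPHP0048.fwd 2.08 (pGAPDH and pAPOBEC3F, enhancer), TRE6_HPHP0029.rev 1.58, TRE6_HPHP0042.rev 1.29 and TRE6_HPHP0046.rev 0.64 (pGAPDH and pMYC, enhancer) and TRE6_HPHP0011.fwd 0.12 (promoter). The centring itself makes these shifts. No shares over all shared elements were taken for the uncentred counts.

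The labels say that each pool of cells was divided between RNA and DNA but not that a replicate number marks a pool, and deviations of same-numbered RNA and DNA libraries correlated at only -0.074 to 0.028 across elements. Whether the numbers pair the libraries is therefore not settled. With a replicate block, orientation calls in the enhancer tables were 0 lower with pMYC, 1 higher and 1 lower with pGAPDH and 0 higher with pAPOBEC3F. Between minimal promoters the block gave 6 lower (pGAPDH and pMYC, enhancer), 11 higher (pAPOBEC3F and pMYC, promoter) and 3 lower (pGAPDH and pAPOBEC3F, enhancer).

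With 1 library left out, counts of RNA over DNA ran from 1 to 2 lower (pMYC promoter), 0 to 2 lower (pMYC enhancer), 6 to 17 higher and 1 to 3 lower (pGAPDH enhancer), 0 to 1 lower (pAPOBEC3F promoter) and 0 to 3 lower (pAPOBEC3F enhancer). Orientation counts ran from 1 to 3 higher (pMYC promoter), 0 to 2 higher and 0 to 2 lower (pMYC enhancer), 3 to 7 lower (pAPOBEC3F promoter), and 0 to 3 higher and 0 to 5 lower (pAPOBEC3F enhancer). The orientation count of 2 higher with pMYC as promoter was 1 without either DNA library, and the 6 lower with pAPOBEC3F were 3 without DNA replicate 2. Minimal promoter counts ran from 0 to 1 higher (pGAPDH and pMYC, promoter), 0 to 2 higher and 1 to 14 lower (enhancer), 0 to 20 higher and 0 to 1 lower (pAPOBEC3F and pMYC, promoter), 0 to 1 lower (enhancer), 0 to 1 higher (pGAPDH and pAPOBEC3F, promoter), and 0 to 2 higher and 0 to 12 lower (enhancer). A fit without 1 library takes its spread from the arm that keeps 2. The pAPOBEC3F enhancer table had the fewest reads and the largest median standard error, and the part of depth in its counts was not tested.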
